A study of Mus musculus with 3 samples.

Results

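A set of 10 genes of serine synthesis, mitochondrial folate metabolism and the ATF4 stress response were followed over 3 mouse arrays, which carried RNA of cultured FULA 1 cells, of lung after urethane and of lung after saline, with 1 array for each. The genes were Psat1, Phgdh, Psph, Shmt2, Mthfd2, Asns, Chac1, Ddit3, Trib3 and Atf4, taken by symbol from the platform annotation, and all 10 were found among 22180 named genes, each on 1 probe set. FULA 1 is a mouse lung adenocarcinoma line and was grown in Dulbecco's Modified Eagle's Medium with 10% fetal bovine serum. The urethane lung came from FVB mice, an inbred strain prone to lung tumours, taken 1 week after the carcinogen urethane (ethyl carbamate) had been injected into the peritoneum, and the saline lung from FVB mice injected with saline. Neither the number, age and sex of the mice behind each lung array nor the time of the saline lung is stated in the labels. The study's groups allow 3 questions, namely how these genes stood in the tumour line against each of the lungs, and in the lung after the carcinogen against the lung after saline. Without replicates no difference could be set against a spread between samples, and no test was made.

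Cells make serine from the glycolytic intermediate 3-phosphoglycerate in a short pathway: Phgdh oxidises it, Psat1 adds an amino group from glutamate and Psph removes the phosphate. In mitochondria Shmt2 then splits serine into glycine and a folate-bound carbon unit, and Mthfd2 oxidises that unit on its way to formate, which feeds purine and thymidylate synthesis. ATF4 is a basic leucine zipper transcription factor whose messenger RNA is translated mainly when kinases that sense stress or amino acid shortage phosphorylate the initiation factor eIF2, so the level of its RNA is not a measure of its activity. Its known targets include the enzymes above and Asns, which makes asparagine, as well as Chac1, Ddit3 and Trib3.

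Promoters of 4 of these genes are shown because the elements through which ATF4 and CCAAT-binding factors are known to act can be searched for in them. The stretches are RefSeq sequence of build GRCm38.p6, printed 5′ to 3′ on the strand of the gene, and capitals mark matches to TGATGNAA, the core of the C/EBP-ATF response element, or to CCAAT, on either strand.
Asns (chr6:7693210-7693309, minus strand, bases 100 to 1 before the start): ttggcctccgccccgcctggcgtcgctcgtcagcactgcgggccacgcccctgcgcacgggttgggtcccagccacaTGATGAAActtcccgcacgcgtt
Chac1 (chr2:119351022-119351121, plus strand, bases 220 to 121 before the start): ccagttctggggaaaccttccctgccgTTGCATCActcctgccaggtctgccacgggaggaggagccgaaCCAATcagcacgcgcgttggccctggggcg
Psat1 (chr19:15925060-15925159, minus strand, bases 100 to 1 before the more upstream of its annotated starts): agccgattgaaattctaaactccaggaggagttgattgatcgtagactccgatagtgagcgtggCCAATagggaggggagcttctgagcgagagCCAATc
Phgdh (chr3:98339970-98340069, minus strand, bases 100 to 1 before the start): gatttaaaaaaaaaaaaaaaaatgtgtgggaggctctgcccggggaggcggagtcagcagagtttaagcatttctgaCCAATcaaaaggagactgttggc

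Over the 250 bases before each start, TGATGNAA was present in the promoters of Asns, 23 to 16 bases before the start, and Chac1, 193 to 186 bases before it, and thus in 2 of the 10 genes (11 windows, since Psat1 has 2 starts). Of all 32851 promoter windows of that length 3.45% held it. CCAAT was present in 7 of the 10 genes, in all except Trib3, Asns and Shmt2, against 33.8% of all windows. The cyclic AMP response element TGACGTCA was found in none of the 10, against 1.55% of all windows. No match of one motif overlapped a match of another in these genes. A match is a description of letters and not a binding site, and its absence from these windows says nothing of elements elsewhere in the gene.

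The deposited values are log2 signals on scales that differed between the arrays. The medians over 41345 probe sets were 4.96 on FULA 1, 1.22 on the urethane lung and 0.08 on the saline lung. Differences were therefore taken after quantile normalization to the mean of the 3 arrays, and the percentile rank of a gene's probe set on its own array, which no such step changes, is given beside each value. A difference of 1 on the log2 scale (2-fold) was counted when the higher value was at or above 2.37, the median of all gene values. The 95th percentile of 1105 olfactory receptor genes (1.96 on FULA 1, 2.44 on the urethane lung and 2.46 on the saline lung) served as a mark of background, and where the lower value of a pair lay below it the bound that puts the mark in its place is given as "at least". Where a gene had 2 probe sets, their differences lay a median of 1.05 apart in FULA 1 minus saline lung (378 genes), 1.00 in FULA 1 minus urethane lung (342 genes) and 0.43 in urethane lung minus saline lung (315 genes). The pair had the same sign in 228 genes (60.3%), 202 genes (59.1%) and 169 genes (53.7%) of these comparisons in the same order. These pairs give a scale for differences between probe sets of a gene only. Variation between mice, cultures or arrays is not in them, and cannot be gauged without replicates.

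The labels were checked against marker genes. Of 29 markers of alveolar, club, ciliated, endothelial, fibroblast and blood cells, 14 were above the mark on FULA 1, against 27 on the urethane lung and 27 on the saline lung, and FULA 1 was below the saline lung by 2-fold or more for 25. The 1 marker at least 2-fold higher was Aqp5, of the alveolar type I list, by 2.49 from the saline lung. It ranked at 98.5 on FULA 1, 92.9 on the urethane lung and 92.0 on the saline lung. Of genes picked out after their values were seen, Scgb1a1, the club cell secretoglobin, ranked at the 20.3 percentile on FULA 1, against 99.9 on each lung. Krt8, a keratin of simple epithelia picked out likewise, ranked at 99.7 on FULA 1, 93.4 on the urethane lung and 92.7 on the saline lung. Of all 4 epithelial markers Krt8, Krt18 and Cdh1 were at least 2-fold higher in FULA 1 than in either lung, and Epcam was lower, by a difference of -0.51 from the saline lung and -1.28 from the urethane lung. FULA 1 exceeded the saline lung by 2-fold or more for all 7 measured proliferation genes (differences of at least 1.75), and for 22.6% of all genes past the floor. These lists moved with every FULA 1 comparison below, and their part in the results was not tested. Dividing cultured cells were set against tissue of many cell types, so culture, cell composition and tumour state cannot be told apart, nor can fewer cells of a type and less RNA per cell.

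After quantile normalization FULA 1 cells had the serine synthesis, mitochondrial folate and asparagine enzymes at higher levels than either lung. With the same scaling Atf4, Chac1 and Trib3 lay within 2-fold of both lungs, and Ddit3 was 2.01-fold lower than in the urethane lung. The 6 enzymes Psat1, Phgdh, Psph, Shmt2, Mthfd2 and Asns were each at least 2-fold higher than in the saline lung, with a median difference of 2.01 (log2) and a range of 1.45 to 3.27. Chac1, Ddit3, Trib3 and Atf4 lay between -0.74 and 0.44. In all, 6 of the 10 genes were at least 2-fold higher and 0 lower, where 22.6% of the 13590 genes past the floor were higher and 22.0% lower. The median over the 10 genes was 1.58, and that over all genes past the floor 0.02. Against the urethane lung 6 were at least 2-fold higher and 1, Ddit3, lower, where 22.1% and 19.5% of 13264 genes were. Both comparisons use the same FULA 1 array and are not independent of each other. The same 6 enzymes exceeded both lungs by at least 2-fold, as did 18.9% of 12753 genes that passed the floor in both comparisons. For Psph this rests on lung values below the mark, and with the mark in their place its differences stay under 2-fold.

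**Figure D1:**
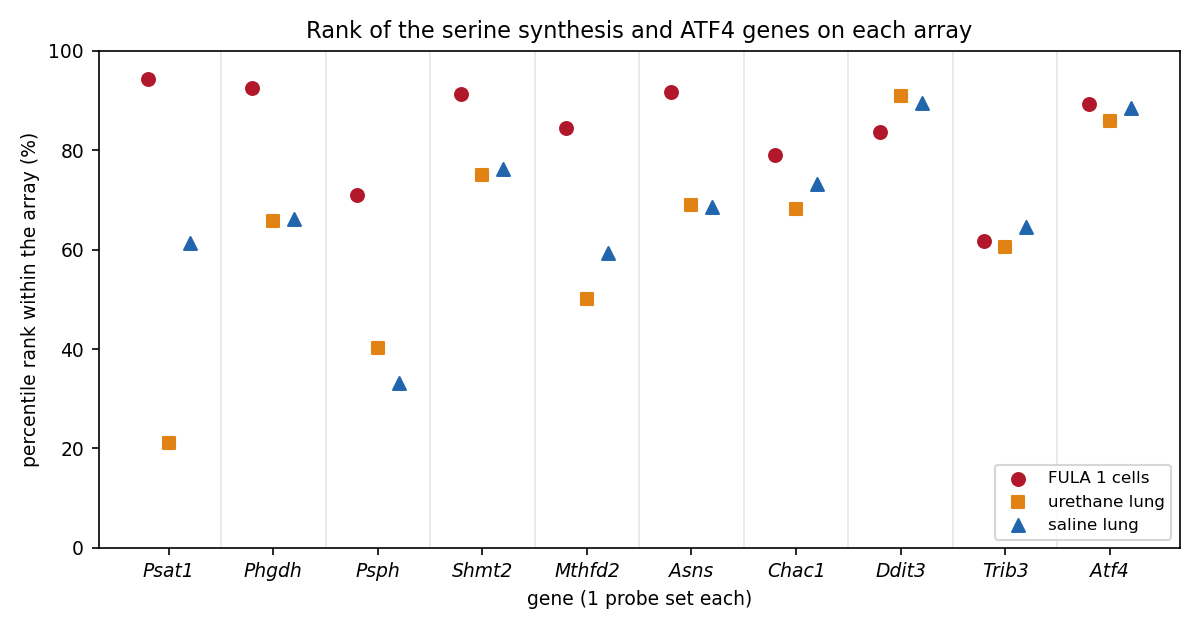
Percentile rank of each gene's probe set among the 41345 probe sets of its array (vertical axis, %), with 1 point for FULA 1 cells (circles), the urethane lung (squares) and the saline lung (triangles). The 6 enzymes at the left, from Psat1 to Asns, rank higher on FULA 1 than on both lungs, by 15.1 points or more, while FULA 1 and saline lung differ by -5.68 points for Ddit3, -2.81 for Trib3 and 0.868 for Atf4.

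Among the genes of serine synthesis, Psat1 differed most. Its normalized log2 value was 5.82 on FULA 1, 1.28 on the urethane lung and 2.55 on the saline lung, and its percentile ranks were 94.2, 21.1 and 61.3 in the same order of arrays. It was thus high on FULA 1, just above the mark on the saline lung and below the mark on the urethane lung. FULA 1 exceeded the saline lung by 3.27, a larger difference than that of 99.0% of all genes past the floor, and the urethane lung by 4.54, or at least 3.38 with the mark as the urethane value. Phgdh, which catalyses the first and committed step of the pathway, had values of 5.41 on FULA 1, 2.76 on the urethane lung and 2.79 on the saline lung. The lungs were nearly equal for Phgdh, and FULA 1 stood 2.62 above the saline lung and 2.65 above the urethane lung, or 6.15-fold and 6.26-fold. Psph, the phosphatase of the last step, had values of 3.06 on FULA 1, 1.79 on the urethane lung and 1.61 on the saline lung. Neither lung value of Psph reached the mark, and its difference of 1.45 from the saline lung therefore reduces to at least 0.59, and that of 1.27 from the urethane lung to at least 0.62. Both bounds stay under 2-fold. In percentile ranks Psph stood at 70.9 on FULA 1, 40.1 on the urethane lung and 33.2 on the saline lung, and with both lung ranks below the mark the size of these steps is not read.

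Both mitochondrial folate enzymes were also higher in the line. Shmt2 had values of 5.15 on FULA 1, 3.33 on the urethane lung and 3.43 on the saline lung, and was above the mark on all 3 arrays. FULA 1 exceeded the saline lung by 1.72 and the urethane lung by 1.82 for Shmt2, which is 3.29-fold and 3.52-fold. Mthfd2 had values of 4.16 on FULA 1, 2.09 on the urethane lung and 2.45 on the saline lung, with both lungs below the mark. Its differences were 1.71 from the saline lung (at least 1.70) and 2.07 from the urethane lung (at least 1.72). The bounds keep Mthfd2 past 2-fold because its FULA 1 value, at percentile rank 84.4, was far above the mark.

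The pair of ATF4 targets that act on amino acids and glutathione did not move alike. Asns had values of 5.22 on FULA 1, 2.93 on the urethane lung and 2.91 on the saline lung. The lungs differed by 0.01, and the line exceeded the saline lung by 2.31 (4.95-fold) and the urethane lung by 2.30 (4.91-fold). Chac1, which degrades glutathione and is induced in the stress response, had values of 3.64 on FULA 1, 2.89 on the urethane lung and 3.20 on the saline lung. FULA 1 was the highest array for Chac1 too, but by 0.44 from the saline lung and 0.75 from the urethane lung, less than the 2-fold size and less than the gap between probe sets of one gene. Of these 2 genes, whose promoters alone among the 10 held TGATGNAA, Asns passed 2-fold and Chac1 did not.

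Of the transcription factors and their regulator, none was 2-fold higher in FULA 1 after quantile normalization. Atf4 itself had values of 4.80 on FULA 1, 4.32 on the urethane lung and 4.67 on the saline lung, at percentile ranks of 89.3, 85.9 and 88.4. Its differences were 0.13 from the saline lung and 0.47 from the urethane lung. Ddit3, which encodes the pro-apoptotic factor CHOP, had values of 4.08 on FULA 1, 5.08 on the urethane lung and 4.82 on the saline lung. It was the only one of the 10 with the line below both lungs, by -0.74 from the saline lung and -1.01 from the urethane lung. The second of these sits on the edge of the 2-fold size, and it was 0.57 when the arrays were instead given a common median by a shift. With that shift the median of all genes past the floor was itself 1.11 in FULA 1 minus urethane lung, above Ddit3. Trib3, a pseudokinase that CHOP and ATF4 induce and that restrains both, had values of 2.57 on FULA 1, 2.51 on the urethane lung and 2.70 on the saline lung. The 3 arrays lay within 0.19 of each other for Trib3, and each value was above its mark.

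**Figure D2:**
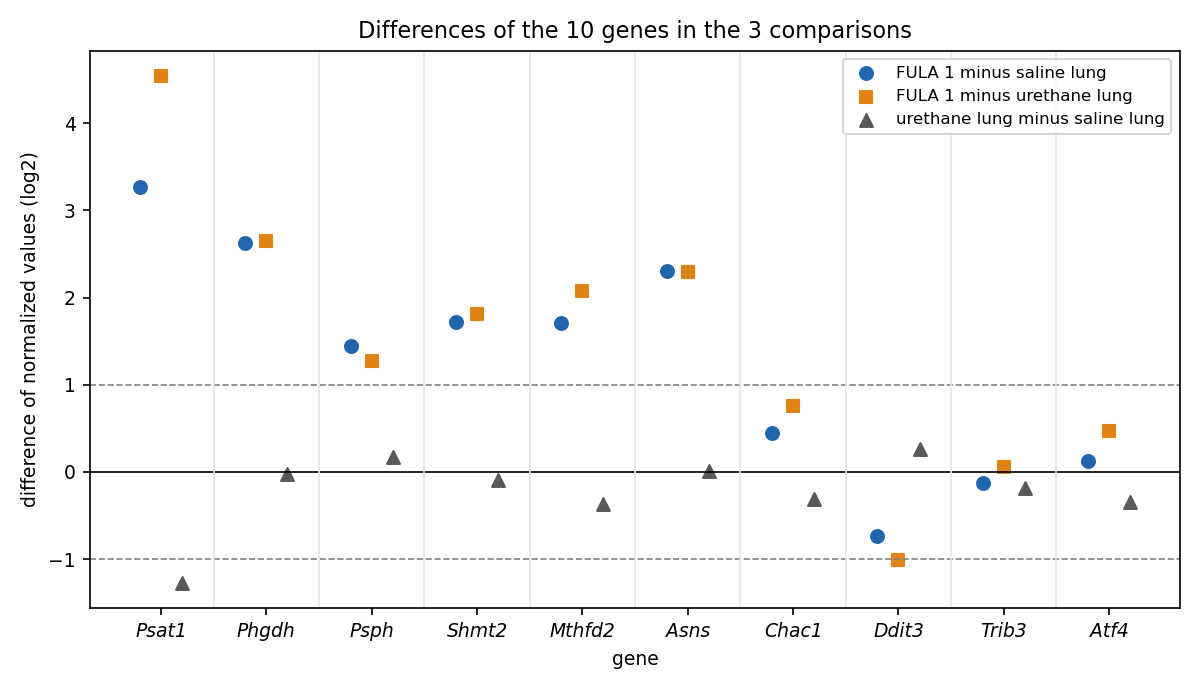
Difference of normalized log2 values (vertical axis) for each of the 10 genes in FULA 1 minus saline lung (circles), FULA 1 minus urethane lung (squares) and urethane lung minus saline lung (triangles), with dashed lines at 2-fold. The 6 enzymes lie above the upper line in both FULA 1 comparisons, Psph with lung values below the mark. Ddit3 reaches -1.01 against the urethane lung, and between the lungs only Psat1 passes a line, at -1.27.

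The 6 enzymes stood above the other 4 genes under every scaling tried against the saline lung, but not under every one against the urethane lung. These 6 are also the genes past 2-fold after quantile normalization, and Chac1, which degrades glutathione, was counted with the other 4. Their order with that scaling was thus fixed by the grouping and is a description only. With quantile normalization, and relative to the median of all genes past the floor, the lowest of the 6 enzymes stood 1.43 higher in FULA 1 minus saline lung, and the highest of the other 4 stood 0.42 higher. With a plain shift of each array to one median, the median of all genes itself became 1.06, with 7058 genes higher and 1785 lower, against 3073 and 2994 with quantile normalization. The values were then 0.86 for the lowest enzyme and 0.73 for the highest of the other 4. In FULA 1 minus urethane lung the order turned with that shift (0.72 for the lowest enzyme, Psph, and 0.93 for the highest of the others, Atf4), with the deposited values (1.85 and 2.06), with values held at the mark (0.55 and 0.68) and with an offset of 32 (0.169 and 0.184). With the values as deposited all 10 genes were higher in FULA 1, as were 21703 of 21820 genes, and those values are not read as differences here. Over the 7 other scalings and gene values apart from the deposited ones, each of the 6 enzymes kept its sign in all 7 against each lung. The other quantile targets and the offset keep the order of the ranks, and the highest probe set repeats the main value of these genes. Signs could therefore turn only with the shift, the values held at the mark or lowess. The 2-fold size held less widely: Psat1 kept it in all 7 against each lung, Phgdh, Shmt2, Mthfd2 and Asns in 6, and Psph in 4. With the mean quantiles of the lungs, or with values held at the mark, 5 of the 10 genes were at least 2-fold higher against each lung. With the lung quantiles 17.0% of all genes past the floor were higher against the saline lung and 16.5% against the urethane lung. With values held at the mark these shares were 10.8% and 18.0%. After the plain shift 8 of the 10 were, as were 51.6% of all genes past the floor against the saline lung and 52.9% against the urethane lung. Chac1 (1.78) and Atf4 (1.77) then passed 2-fold against the saline lung as well. With the quantiles of the FULA 1 array 7 were higher against the urethane lung (28.1% of all genes). The sign of Chac1 also held in all 7, whereas Ddit3 and Trib3 kept theirs in 6 of 7 against the saline lung, as did Atf4.

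**Figure D3:**
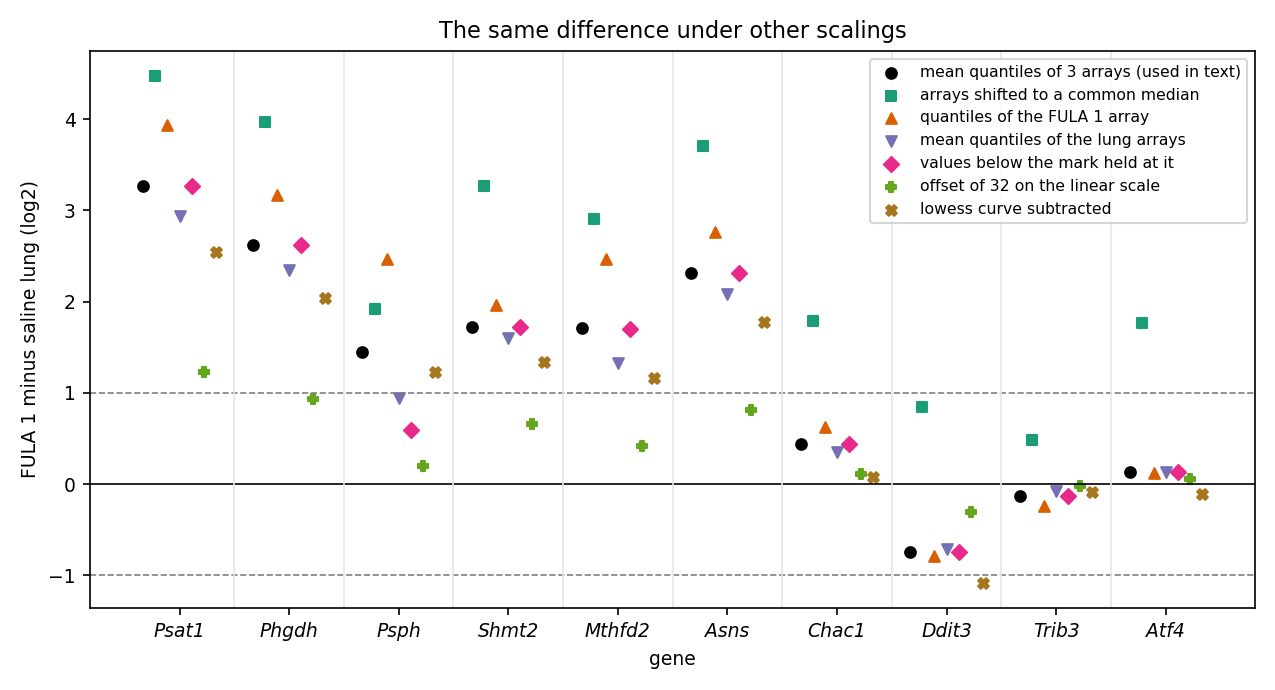
FULA 1 minus saline lung (vertical axis, log2) for each of the 10 genes under quantile normalization to the mean of the 3 arrays (black circles) and 6 other scalings (coloured symbols), with dashed lines at 2-fold. The 6 enzymes lie above 0 under every scaling drawn, from 0.20 for Psph with an offset of 32 to 4.47 for Psat1 after a shift to one median, while Ddit3 runs from -1.08 to 0.84.

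The rest of one-carbon metabolism was mixed. Of 24 listed genes 20 were measured and 19 passed the floor against the saline lung. Of these 6 were at least 2-fold higher in FULA 1 and 1 lower, where 22.6% and 22.0% of all genes past the floor were. The median over the list was 0.11. The highest was Gldc, the glycine decarboxylase of the mitochondrial glycine cleavage system, at 4.21 (at least 3.42), with percentile ranks of 94.4 on FULA 1, 35.8 on the urethane lung and 35.7 on the saline lung. Sfxn1, a mitochondrial serine carrier, followed at 2.72. Gcsh and Amt, which encode other parts of the cleavage system and were named after their values were seen, were at -0.63 and -0.45. The lowest were Gnmt, the glycine methyltransferase known from liver, at -1.35 (lower by at least 0.89), and Ftcd, an enzyme of histidine breakdown, at -0.74. The direction of Gnmt turned with the deposited values.

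Paralogues of the 10 genes did not all follow them. Of 8 measured, 3 were higher in FULA 1 than in the saline lung by 2-fold or more and 2 lower, with a median of 0.55. Over all genes past the floor 22.6% were higher and 22.0% lower. Shmt1, the cytosolic partner of Shmt2, was higher in FULA 1 by 1.77 (at least 1.53), close to the difference of Shmt2, and Mthfd2l, the relative of Mthfd2, by 1.20. Chac2, the relative of Chac1 with constitutive activity on glutathione, was higher by 2.09 (at least 1.90). Trib2 was lower by a difference of -2.56 and Atf5, another eIF2-controlled leucine zipper factor, by -2.10, where their relatives Trib3 and Atf4 differed little. Asnsd1, which shares a domain name with Asns, was at -0.04.

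Other ATF4 targets included genes well above and well below their levels in the saline lung. Of 26 listed genes 24 were measured, of which 22 passed the floor. FULA 1 exceeded the saline lung by 2-fold or more for 10 and was below it for 3, with a median of 0.73. Over all genes past the floor 22.6% were higher and 22.0% lower. The highest were amino acid transporter genes, Slc38a2 at 3.29 and Slc7a1 at 3.25 (at least 2.39). Slc7a5, the large neutral amino acid carrier, stood at 2.82, and Gpt2, the mitochondrial alanine transaminase, at 2.52 (at least 2.27). The lowest were transcription factors, Atf5 at -2.10 and Cebpb at -1.88; the third lower gene, named after its values were seen, was Nupr1, a stress-induced chromatin protein, at -1.60. Against the urethane lung Gpt2 stood at 0.91, under 2-fold, and Cebpb at -1.44. After the plain shift Cebpb stood at 0.026 there, where the median of all genes past the floor was 1.11.

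Cytosolic tRNA synthetases, several of which are known ATF4 targets, were largely higher in the line. Of 18 measured genes of 20 listed, FULA 1 exceeded the saline lung by 2-fold or more for 14 and was below it for 1, with a median of 1.36. Over all genes past the floor 22.6% were higher and 22.0% lower. The same number, 14, exceeded both lungs by that size, as did 18.9% of all genes that passed the floor in both comparisons. Iars, which charges isoleucine, was at 3.04 and Qars, which charges glutamine, at 2.74 (at least 2.31). Farsa was at 0.26. Wars, the tryptophan enzyme, which interferon gamma is known to induce, was the exception at -1.73, with percentile ranks of 95.3 on FULA 1, 96.7 on the urethane lung and 98.6 on the saline lung.

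The eIF2 kinases and their regulators, upstream of ATF4, included no gene 2-fold lower in FULA 1. Of 14 measured genes of 15 listed, 4 were at least 2-fold higher in FULA 1 than in the saline lung and 0 lower, with a median of 0.64. The share of higher genes, 4 of 14, is near the 22.6% of all genes past the floor. The highest were Eif2b1 at 1.55 (at least 1.34) and Eif2b5 at 1.09 (at least 1.04), subunits of the exchange factor that recharges eIF2. The lowest were Eif2b4 at -0.20 and Eif2ak4, which encodes the amino acid sensing kinase GCN2, at 0.08. The chaperones and sensors of the other unfolded protein branches (21 measured of 22 listed) had a median of 0.55 against the saline lung. Of their 20 genes past the floor, 8 exceeded that lung by 2-fold or more and 0 fell below it by as much. The shares of all genes were 22.6% and 22.0%. Only 5 of 20 exceeded the urethane lung by that size, near the 22.1% of all genes. Both lungs were exceeded by 4 of 20, near the 18.9% of all genes. Against the saline lung Atf6 at 1.77 and Ern1, which encodes the sensor IRE1, at 1.72 were the highest. Xbp1, the factor that IRE1 activates, was at -0.31 and Edem1 at -0.37.

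**Figure D4:**
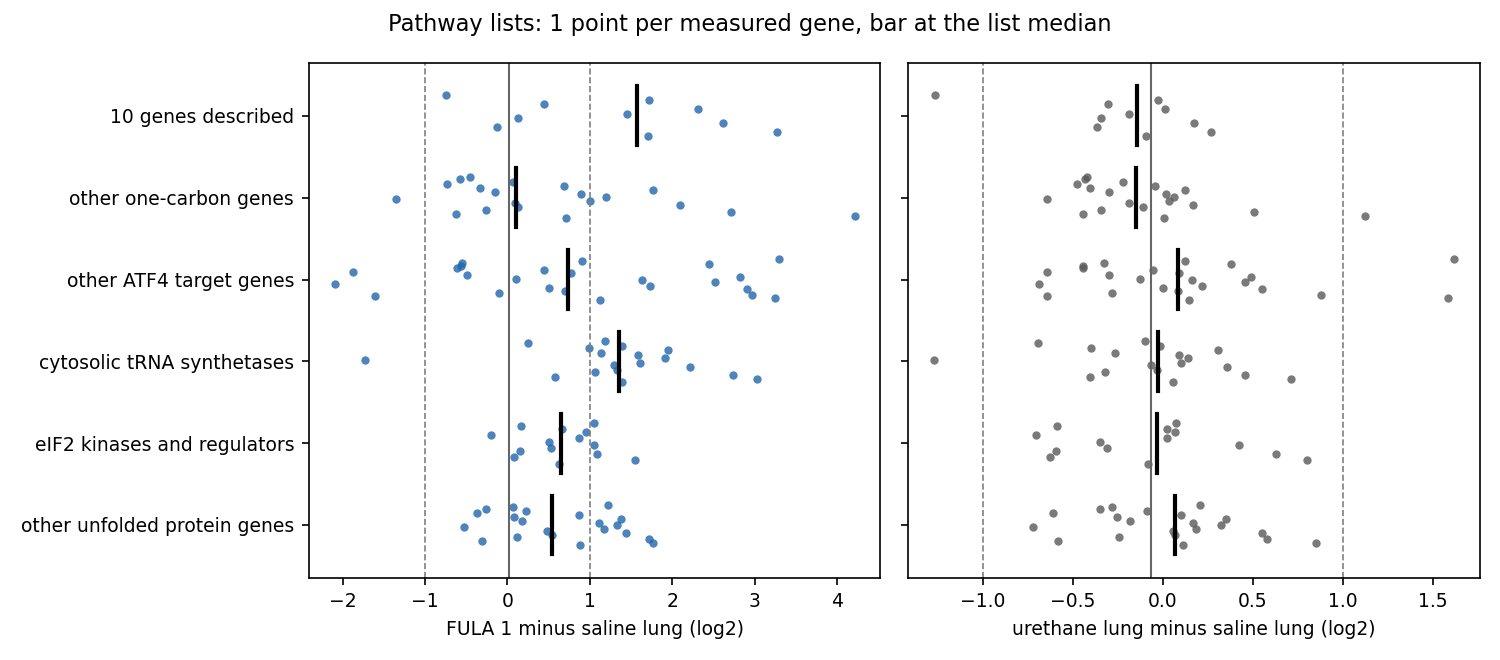
Difference in log2 (horizontal axis) for every measured gene of the 10 described and of 5 pathway lists, in FULA 1 minus saline lung (left) and urethane lung minus saline lung (right). Black bars are list medians, the grey line is the median of all genes past the floor and dashed lines are at 2-fold. At the left the bar lies at 1.58 for the 10 genes and 1.36 for the tRNA synthetases, and at the right every bar lies between -0.15 and 0.09.

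Between the lungs these genes were nearly level, apart from Psat1. Of the 9 that passed the floor (all but Psph), 0 were at least 2-fold higher in the urethane lung and 1 was lower, where 3.27% of the 12519 genes past the floor were higher and 1.31% lower. The median over the 10 genes was -0.14, against -0.07 for all genes past the floor. Phgdh differed by -0.03, Asns by 0.01, Shmt2 by -0.10 and Trib3 by -0.19. Atf4 was at -0.35 and Chac1 at -0.31, while Ddit3 was at 0.27. All of these are smaller than the gap of 0.43 between probe sets of one gene. No size is given for Psph and Mthfd2, which did not reach the mark on either lung.

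Psat1 was lower in the urethane lung by a difference of -1.27, but its urethane value is coarse. Its deposited value there was 0.72, which 1276 probe sets shared, so that the tie covers percentile ranks 19.6 to 22.7. With the mark in place of this value the difference is at least -0.11, or 1.08-fold, since the saline value of 2.55 stood just above the mark of 2.46. The difference was between -2.26 and -0.11 over the 7 scalings and gene values apart from the deposited ones, and 0.38 in the deposited values. Chac1 and Mthfd2 also shared their urethane values, with 559 and 102 probe sets in each tie.

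The medians of the pathway lists lay between -0.15 and 0.09 between the lungs. Among other ATF4 targets the urethane lung was higher by 2-fold or more for 2 of 20 that passed the floor, Gpt2 at 1.62 (at least 1.36) and Ddit4, an inhibitor of mTORC1 induced by stress and glucocorticoids, at 1.58, and 0 lower, where 3.27% of all genes past the floor were higher. Eif4ebp1 at -0.69 and Slc7a5 at -0.64 were the lowest of that list. In one-carbon metabolism Aldh1l1, the cytosolic formyltetrahydrofolate dehydrogenase, was at 1.13 (at least 0.40), and Gnmt at -0.64 (lower by at least 0.41). Of the tRNA synthetases Wars was the only one past 2-fold, at -1.27, and Gars the highest at 0.71. Eif2ak1, which encodes the haem-regulated eIF2 kinase, was at -0.71 (lower by at least 0.41), and Hspa5, the main chaperone of the endoplasmic reticulum, at -0.61. The 7 proliferation genes had a median of -0.44 with 6 below 0, of which Aurkb, a mitotic kinase, at -1.01 passed 2-fold. Markers of lung cell types moved by -0.69 to 0.99 in the same comparison, with 0 of 29 past 2-fold.

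The genes whose ranks over the 3 arrays were most like those of Psat1 were Abcb1b, a drug efflux transporter, Kif23, a kinesin of cytokinesis, and Cd276, an immune checkpoint protein of the B7 family, at distances of 12.7, 14.5 and 14.7 percentile points. Abcb1b ranked at 86.3 on FULA 1, 28.6 on the urethane lung and 54.7 on the saline lung. For Asns the nearest were Rundc3b, Scpep1 and Wdr70, at distances of 1.04, 1.35 and 1.95 points. The distances to Psat1 rest on a urethane rank that is below the mark and tied, so the distances of these pairs are not compared. Likeness over 3 arrays is a weak measure and describes only these arrays.

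Each of the 10 genes rested on a single probe set, and some probe sets may read other transcripts. In RefSeq Psph overlaps Cct6a, Shmt2 overlaps Ndufa4l2, Ddit3 overlaps Mbd6 and Mars1, and Phgdh has a listed pseudogene, Phgdh-ps1. Whether the probes fall in shared sequence was not tested.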

How the data were processed

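RNA of FULA 1 cells, urethane lung and saline lung was read on 1 array each. The deposited table holds log2 values per probe set. They were made with RMA (robust multi-array average), per the submitters' processing notes, and the design text names GeneSpring GX 12.5. For the background setting and for which arrays were normalized together, the sources used here give nothing. The table had 0 columns of other samples. Why the columns' scales differ is unknown, and higher values are taken as more signal.

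Probe sets with 1 annotated symbol (23521 of 41345) named a gene, updated by Entrez identifier through RefSeq GRCm38.p6 (23328 matched); 1814 carried several symbols and 16010 were unnamed here. Arrays were quantile-normalized to the mean of the 3 sorted columns, ties taking their mean rank, and probe sets of a gene were averaged, ranks likewise (Python 3.11.15, pandas 2.3.3, numpy 2.4.6, statsmodels 0.14.6). The code was tested on simulated data. No test was possible with 1 array per group, and precision is limited by the number of arrays.

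Named genes are the 10 members, the 2 highest and 2 lowest past the floor of each pathway list in FULA 1 minus saline lung and urethane lung minus saline lung, and the 3 nearest in rank to Psat1 and to Asns; Slc7a5 and Gpt2 were named in the FULA 1 comparison through the lung comparison. Members and lists were chosen with earlier results of these data known. Listed genes without a probe set of their own were not analysed here. Alternatives were other scalings, thresholds, floors and gene values.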

Additional observations from a re-analysis of the deposited data

How the results depend on the processing

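The columns' scales set the size of every difference. With the deposited values 10 genes were higher by 2-fold or more in FULA 1 than in the saline lung (median 7.30; 99.5% of all genes), 10 higher and 0 lower than in the urethane lung (median 6.32; 99.0% of all genes higher), and 2 higher and 0 lower in the urethane lung than in the saline lung (median 1.14; 63.9% of all genes higher). With an offset of 32, which shrinks differences of low values by construction, 1 was higher than in the saline lung (median 0.31; 3.19% of all genes past the floor), 1 higher and 0 lower than in the urethane lung (median 0.33; 3.08% of all genes higher), and 0 lower between the lungs. With that offset 2.66% of all genes were lower than in the urethane lung, and 0.016% between the lungs. A threshold of 4-fold left 3 higher in FULA 1 than in the saline lung (6.27% of all genes). It left 0 lower than in the urethane lung (5.11%) and 0 lower between the lungs (0.008%). Against the saline lung 1 gene, Ddit3, was lower in FULA 1 after lowess (22.0% of all genes) and 1 at 1.5-fold (33.7%). Against the urethane lung 0 were lower after a shift to one median (median 2.57, 11.5% of all genes) or with the mean quantiles of the lungs (12.3%). Between the lungs 0 were lower with the arrays shifted (1.69% of all genes), the lung quantiles (0.41%) or values held at the mark (0.43%). Likewise 0 were lower there after lowess (0.29%) or with a floor at the 75th percentile (1.30%). Of 63 named genes the deposited values turned the sign of 12 in FULA 1 minus saline lung (Ddit3 and Trib3 among the 10 genes), 10 in FULA 1 minus urethane lung and 38 between the lungs, and the shift to one median that of 5 (again Ddit3, at 0.84, and Trib3, at 0.48), 6 and 6. Among differences of 2-fold or more, the deposited values turned Atf5 (4.005), Cebpb (4.37), Gnmt (3.41), Trib2 (3.53) and Wars (3.95) in FULA 1 minus saline lung, Atf5 (2.82), Cebpb (3.77), Ddit3 (4.31) and Trib2 (2.85) in FULA 1 minus urethane lung, and Aurkb (0.45), Cd276 (0.49) and Psat1 (0.38) in urethane lung minus saline lung. The shift turned Cebpb (0.026) and Ddit3 (0.57) in FULA 1 minus urethane lung, where it put the median of all genes past the floor at 1.11. The share of calls that were higher was 50.7% in FULA 1 minus saline lung and 79.8% with the arrays shifted, 53.2% and 82.1% in FULA 1 minus urethane lung, and 71.4% between the lungs, where it ran from 51.4% (arrays shifted) to 86.9% (lowess) apart from the deposited values, with 5180 higher and 0 lower. The cause of these changes was not tested. No paired analysis was possible because each group had 1 array. Low lung values limit what can be seen for Psat1, Psph and Mthfd2 between the lungs. Psat1 and Mthfd2 had tied values on the urethane lung. Psph had no tie, and like Mthfd2 it lay below the mark on both lungs.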
